A study of Homo sapiens with 12 samples.

Results

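The 10 genes described here encode enzymes that take glucose 6-phosphate to pyruvate: GPI, PFKP, PFKL, PFKM, ALDOA, TPI1, GAPDH, PGK1, ENO1 and PKM. Phosphoglycerate mutase, which works between PGK1 and ENO1, is not among them. The 10 genes were chosen by symbol, by their place in the pathway, with earlier results of these data known. They make up 10 of the 43481 genes in the expression tables. Messenger RNA with a poly-A tail was measured in RPE-1, a human cell line derived from retinal pigment epithelium and grown as an established line. There were 4 groups of 3 libraries, 12 in all. Both serum (fetal calf serum, FCS) and glucose were withheld from all cells for 24 h, and the starved group had no further treatment. The 3 refed groups then received RPMI medium with 10% FCS and 5 g/l glucose for 4 h. One had only the solvent DMSO (called solvent below), another the compound dimethyl amiloride (DMA) at 100 µM, and the last C646 at 10 µM. DMA blocks Na+/H+ exchangers, membrane proteins that carry protons out of the cell. The compound C646 is an inhibitor of p300 and CBP, enzymes that acetylate histones. Serum and glucose were given back together, so their effects cannot be told apart, and the starved group lacked the 4 h in fresh medium and the solvent. Libraries are numbered within each group, and the labels do not say whether they came from separate cultures, so the p-values measure only the spread between these libraries, which may be technical.

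Glycolysis splits a 6-carbon sugar into a pair of 3-carbon sugars and then harvests ATP and NADH from them. GPI, the phosphofructokinases (PFKP, PFKL and PFKM) and the aldolase ALDOA prepare and cut the sugar, with phosphofructokinase as the committed and most strongly regulated step. TPI1 interconverts the products of the cut. GAPDH, PGK1, ENO1 and PKM, with phosphoglycerate mutase between PGK1 and ENO1, turn them into pyruvate. Many of these genes are known targets of the transcription factors HIF-1 and MYC.

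The libraries held 14910516 to 28968510 expected counts (reads assigned to transcripts as estimates), and 3 reads corresponded to 0.105 to 0.203 CPM (counts scaled to a common library total), far below the lowest member. Spike-in controls took 0.527% to 1.28% of the counts and mitochondrial transcripts 1.69% to 4.18%. Solvent library 1 stood apart on a principal component with 13.4% of the variance. A component with 14.6% of the variance separated the 4 libraries numbered 3 from the others. Of the markers of retinal pigment epithelium, RPE65, RLBP1 and TYR were at or near 0 in every library, at most 0.168, 0.293 and 0.0419 CPM. MITF reached 17.4 to 55.4 CPM, and the simple epithelial keratins KRT8 and KRT18 were present at 219.8 CPM or more. A further keratin of that list, KRT19, did not pass 0.298 CPM. Of the mesenchymal or fibroblast-like markers, VIM had 4024 to 7040 CPM, FN1 6057 to 10060 CPM and CDH2 266 to 362 CPM. COL1A1 was low, at 1.14 to 9.53 CPM. CDH1, EPCAM and the blood marker PTPRC did not pass 0.628 CPM.

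All 10 genes were expressed in every library and passed the filter on low counts. Their levels per transcript length were compared in TPM, a length-corrected share of all transcripts. GAPDH had the highest level in each group, with 5766 TPM in starved and 6038 TPM in solvent cells. PKM followed at 1308 and 1847 TPM, and ENO1 at 1195 and 1706 TPM, and the libraries of this pair overlapped in every group. ALDOA (1036 and 1242 TPM), TPI1 (643 and 975 TPM) and PGK1 (310 and 492 TPM) came next. The top of the pathway was lowest: PFKP had 113 and 158 TPM, GPI 71.3 and 98.8 TPM, PFKM 69.7 and 57.4 TPM, and PFKL 36.8 and 31.2 TPM. The order of the group means was the same in all 4 groups. Neighbours overlapped in single libraries for ENO1 and ALDOA and for GPI and PFKM in starved cells, and for ALDOA and TPI1 in solvent cells.

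**Figure D1:**
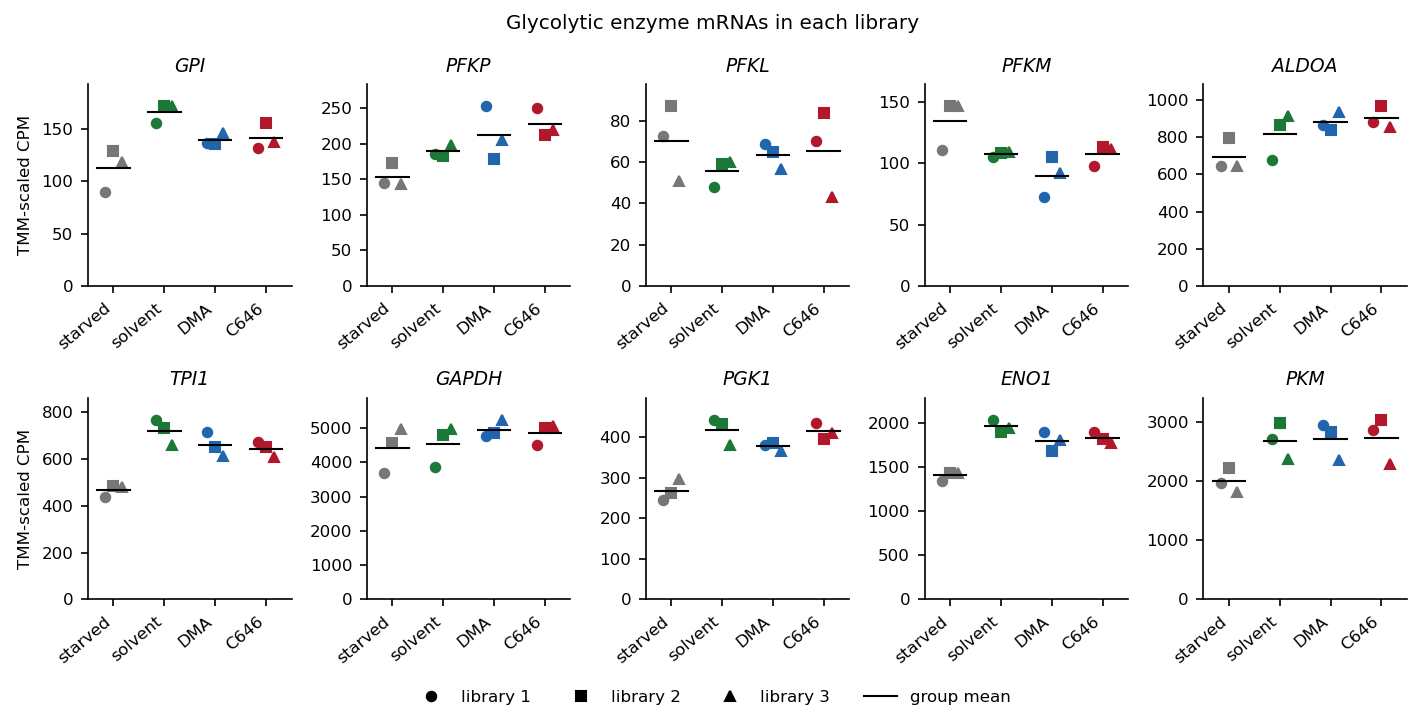
Normalised level (TMM-scaled CPM, linear axes starting at 0) of each gene in the 3 libraries of each group, with the group mean as a line. The refed libraries of TPI1, PGK1, ENO1 and PKM all lie above the starved ones, and so do those of GPI and PFKP. ALDOA overlaps the starved libraries with solvent, PFKM with C646, and GAPDH and PFKL in every refed group.

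Refeeding in solvent raised 5 of the 10 mRNAs by 1.34 to 1.56 times: GPI at the top of the pathway, and TPI1, PGK1, ENO1 and PKM in its lower part. No member was called lower. GAPDH, the most abundant of them, differed by 1.03 times, less than its spread between libraries. The comparison asks what 4 h of serum and glucose do to starved cells. Calls rest on edgeR's quasi-likelihood F-test with Benjamini-Hochberg adjustment over the 15263 genes tested, at a threshold of 0.05. Among all genes tested 24.3% were called, 12.6% higher and 11.7% lower. The members' median log2 fold change was 0.36, and that of all genes was 0.00. The 3 solvent libraries lay wholly above the starved ones for 6 members and wholly below for 1, while 20.5% and 19.5% of all genes did so. In bulk RNA, fewer cells of a kind and less RNA per cell cannot be told apart, here and in every comparison below.

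GPI (chr19:34359480-34402413, GRCh38, plus strand) turns glucose 6-phosphate into fructose 6-phosphate. It measured 90.1, 129 and 118 CPM in starved libraries 1 to 3, and 156, 172 and 172 CPM with solvent. Every solvent library was above every starved one, and the rise was 1.48-fold (log2 fold change 0.57 ± 0.13 SE, adjusted p = 0.0066).

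The phosphofructokinase genes did not move as a block. PFKP (chr10:3066333-3137712), which encodes the platelet-type isoenzyme, had 144, 173 and 144 CPM in starved cells and 186, 183 and 198 CPM with solvent. The groups did not overlap, but the difference missed the threshold (0.30 ± 0.13, adjusted p = 0.12). PFKM (chr12:48105139-48146404), the muscle type, lay the other way, with 111, 147 and 147 CPM in starved cells and 105, 108 and 109 CPM with solvent (-0.33 ± 0.14, adjusted p = 0.12). PFKL (chr21:44300051-44327376), the liver type, overlapped between the groups, with 72.7, 87.0 and 51.0 CPM against 47.7, 59.2 and 59.7 CPM (-0.34 ± 0.23, adjusted p = 0.31). Without starved library 1, PFKM was called lower (-0.45, adjusted p = 0.048).

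ALDOA (chr16:30064164-30070457) encodes the aldolase that cuts fructose 1,6-bisphosphate. It measured 644, 798 and 645 CPM in starved cells and 679, 868 and 912 CPM with solvent, with overlapping libraries and no call (0.24 ± 0.13, adjusted p = 0.21). Its counts are uncertain, since 42.3% of its exon bases overlap a readthrough gene on the same strand. TPI1 (chr12:6867119-6870948), triose phosphate isomerase, had 439, 486 and 482 CPM in starved cells and 769, 733 and 661 CPM with solvent. The solvent libraries were all higher, by 1.54 times (0.62 ± 0.10, adjusted p = 0.00095).

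GAPDH (chr12:6533927-6538374) makes NADH and the first high-energy phosphate of the pathway, and is a common reference gene. Its level was 3702, 4571 and 4967 CPM in starved cells and 3864, 4807 and 4973 CPM with solvent. The groups overlapped almost completely, and the 95% interval of the difference ran from -0.24 to 0.33 on the log2 scale (adjusted p = 0.85). Of its 31-base sequences 29.1% also occur in other genes, 12.2% in genes of these tables, so some of its reads may be shared. The gene with the most shared sequences, AC006064.4, overlaps 14.2% of the GAPDH exon bases on the opposite strand.

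PGK1 (chrX:77910739-78129296) makes the first ATP of the lower pathway. It rose from 246, 262 and 297 CPM in starved libraries to 443, 431 and 380 CPM in solvent libraries, 1.56-fold (0.64 ± 0.10, adjusted p = 0.00082). This was the highest fold of the 10 genes. Only 54.0% to 60.9% of its counts were assigned to its protein-coding transcript. That transcript alone had 149 ± 6.35 CPM in starved and 242 ± 6.81 CPM in solvent cells (SD, n = 3), so the coding form was higher too. Both values were scaled to the library total only, without the TMM factors used for the gene values. Their SDs are therefore not comparable with the spread of the gene values.

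ENO1 (chr1:8861000-8879250, minus strand), the enolase, measured 1350, 1439 and 1437 CPM in starved and 2044, 1908 and 1945 CPM in solvent cells. Its starved libraries differed little from each other, and the rise was 1.40-fold (0.48 ± 0.09, adjusted p = 0.0028). PKM (chr15:72199029-72231822, minus strand) encodes the pyruvate kinase that ends the pathway. It had 1973, 2216 and 1820 CPM in starved and 2702, 2972 and 2366 CPM in solvent cells, a 1.34-fold rise just past the threshold (0.42 ± 0.14, adjusted p = 0.043). In both groups library 3 was the lowest. The call for PKM was lost without any one of starved libraries 1, 2 and 3 or solvent libraries 1 and 2, with adjusted p-values of 0.052 to 0.15. The step between PGK1 and ENO1 belongs to phosphoglycerate mutase, and its gene PGAM1 rose from 495 ± 57.0 to 749 ± 21.6 CPM (SD, n = 3, log2 fold change 0.60 ± 0.10, adjusted p = 0.0011).

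TPI1, PGK1, ENO1 and PKM were higher than in starved cells in each of the 3 refed groups. The 250 bases before their RefSeq transcription starts (GRCh38.p14, 5′ to 3′ on the gene's strand) are shown because the genes moved together. Capitals mark ACGTG and GCGTG on either strand, the core of the hypoxia response element bound by HIF-1. The windows are chr12:6867281-6867530 (plus strand) for TPI1, chrX:78103998-78104247 (plus) for PGK1, chr1:8878687-8878936 (minus) for ENO1 and chr15:72231191-72231440 (minus) for PKM.
TPI1: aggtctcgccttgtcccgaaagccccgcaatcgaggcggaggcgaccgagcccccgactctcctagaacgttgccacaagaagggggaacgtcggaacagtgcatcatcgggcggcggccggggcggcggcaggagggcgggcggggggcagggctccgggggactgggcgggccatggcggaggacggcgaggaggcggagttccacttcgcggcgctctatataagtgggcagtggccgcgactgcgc
PGK1: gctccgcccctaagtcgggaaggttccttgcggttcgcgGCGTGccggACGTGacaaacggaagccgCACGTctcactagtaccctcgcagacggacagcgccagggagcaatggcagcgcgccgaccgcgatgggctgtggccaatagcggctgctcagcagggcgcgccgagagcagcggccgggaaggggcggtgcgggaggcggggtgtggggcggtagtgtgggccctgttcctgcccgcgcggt
ENO1: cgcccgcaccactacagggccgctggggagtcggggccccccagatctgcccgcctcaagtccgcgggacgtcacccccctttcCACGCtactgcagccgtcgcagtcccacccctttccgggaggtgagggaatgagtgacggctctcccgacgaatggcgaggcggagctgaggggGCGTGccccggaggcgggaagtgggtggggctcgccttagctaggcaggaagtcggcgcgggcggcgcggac
PKM: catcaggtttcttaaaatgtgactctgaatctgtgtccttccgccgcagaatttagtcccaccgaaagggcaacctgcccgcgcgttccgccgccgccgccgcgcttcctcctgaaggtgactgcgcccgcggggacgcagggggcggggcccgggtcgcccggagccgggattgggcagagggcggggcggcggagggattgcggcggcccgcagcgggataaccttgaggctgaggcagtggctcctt

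PGK1 held 2 matches to ACGTG and 1 to GCGTG, ENO1 held 2 to GCGTG, and TPI1 and PKM held neither. Of the 10 members, 6 had either core in this window, compared with 43.2% of the 35116 promoters of the same length. ACGTG occurred in 4 members, GPI, ALDOA, GAPDH and PGK1 (18.5% of all promoters), and GCGTG in 3, PFKL, PGK1 and ENO1 (32.2%). The E-box CACGTG, which contains ACGTG and can be bound by MYC, occurred in GAPDH only (6.34% of all promoters). The GC box GGGCGG, bound by SP1, was found in 7 members (42.6% of all promoters), with 7 copies in PFKL, 5 in TPI1, 3 each in PGK1 and PKM, 2 in GAPDH and 1 each in PFKP and ENO1. All matches were counted on both strands. All 10 members are expressed, while the background was not limited to expressed genes, and none of these shares was tested. The annotated start used lay within 74 bases of the start of the leading coding transcript for TPI1, PGK1, ENO1 and PKM, and for PFKL and PFKM. It lay 94 bases from it for ALDOA, 199 for GPI, 450 for PFKP and 510 for GAPDH. For PFKP and GAPDH that distance is longer than the window, so their counts do not describe the bases just before the leading transcript. For GPI most of those bases were not covered either.

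Scaling decides the size and, for the phosphofructokinases PFKM and PFKL, the sign of these differences. The scaling used above takes most genes as level between groups. Scaling to the spike-in controls instead moved the median of all genes by 0.60 between solvent and starved cells. On that scale 6 members were called higher and none lower, where 21.1% of all genes were called higher and 1.24% lower. PGK1 then measured 1.21 ± 0.34, TPI1 1.19 ± 0.35 and GPI 1.15 ± 0.34 on the log2 scale. PFKP passed the threshold at 0.88 ± 0.34 (adjusted p = 0.042). GAPDH measured 0.65 ± 0.38, close to the median of all genes. PFKM and PFKL came out above 0, at 0.24 ± 0.33 and 0.30 ± 0.33, yet below the median of all genes. Against starved cells the same scaling called 8 members higher with DMA and 7 with C646, and none lower. There 42.2% and 33.4% of all genes were called higher and 0.884% and 0.812% lower. Spike-ins took 1.28%, 0.959% and 0.872% of the counts in starved libraries 1 to 3, and 1.06%, 0.527% and 0.663% in solvent libraries. Their share thus also differed within groups, and solvent library 1 lay above starved libraries 2 and 3. The labels do not state which spike-ins were added or how much.

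**Figure D2:**
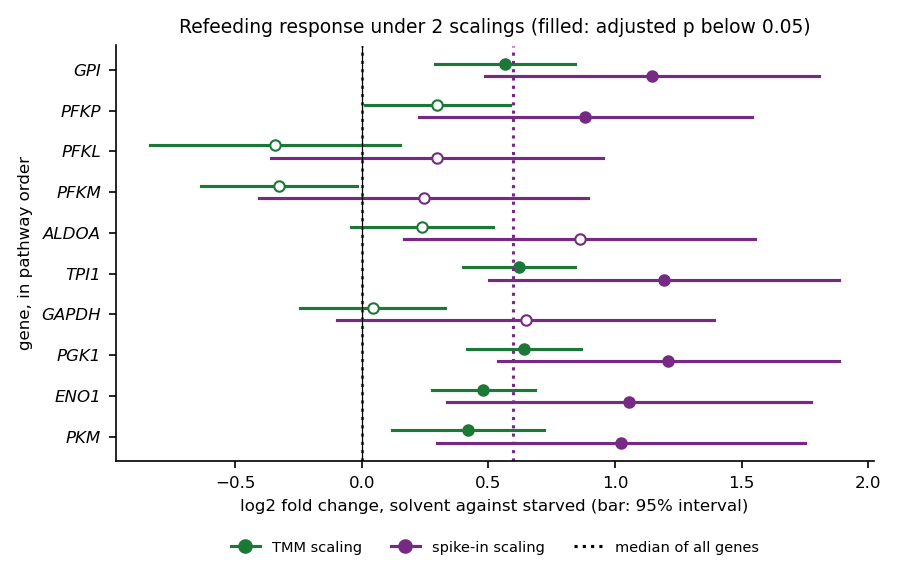
Log2 fold change of each gene in solvent against starved cells with its 95% interval, after TMM scaling (green) and spike-in scaling (purple), with the median of all genes as dotted lines. The spike-in values lie about as far to the right as the median of all genes, 0.60, and PFKM and PFKL change sign but stay left of that median.

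Neither inhibitor moved any of the 10 mRNAs past the threshold against solvent. These comparisons ask what changes when Na+/H+ exchange or p300/CBP is blocked during refeeding. With DMA 0 of 10 members were called, as were 1.75% of all genes, and with C646 0 of 10 and 1.21%. No member had an unadjusted p under 0.05 in either comparison, and DESeq2 called none. With the library number as a block 10.2% and 7.86% of all genes were called and still no member, although 2 members in each comparison had an unadjusted p under 0.05. DMA against C646 also gave 0 members, with 2.89% of all genes called, 9.81% with the block.

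With DMA the lowest log2 fold changes against solvent were those of PFKM and GPI. PFKM had 72.3, 105 and 91.8 CPM with DMA, all below the solvent libraries (-0.26, 95% interval -0.57 to 0.05, adjusted p = 0.34). GPI had 137, 136 and 146 CPM, also wholly below solvent (-0.25, interval -0.53 to 0.02, adjusted p = 0.29). ENO1 was the other member without overlap, at 1898, 1688 and 1807 CPM (-0.13, interval -0.33 to 0.07). Such a separation downwards held for 3 of 10 members and for 11.9% of all genes. The other 7 members ranged from PFKL (0.19, interval -0.30 to 0.68) to PGK1 (-0.15, interval -0.37 to 0.07), and the intervals of all 10 included 0.

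With C646 the highest log2 fold change against solvent was that of PFKP. PFKP had 250, 212 and 219 CPM, all above solvent (0.27, interval -0.02 to 0.55, adjusted p = 0.33), as 1 of 10 members and 10.2% of all genes. ENO1, at 1906, 1823 and 1781 CPM, lay wholly below solvent (-0.10, interval -0.30 to 0.11), as did 11.6% of all genes. GPI had 132, 156 and 138 CPM (-0.23, interval -0.51 to 0.05). PGK1 with 435, 396 and 410 CPM and PKM with 2860, 3035 and 2293 CPM overlapped the solvent libraries widely. Their differences were -0.01 (interval -0.24 to 0.21) and 0.03 (interval -0.27 to 0.33), and changes of a size within these 95% intervals are not excluded.

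Between the inhibitors, PGK1 was lower with DMA in every library (380, 386 and 365 CPM), the only such member (-0.13, interval -0.36 to 0.09, 11.1% of all genes). PFKM differed by -0.26 (interval -0.57 to 0.05) and the remaining 8 members by 0.10 or less in either direction.

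**Figure D3:**
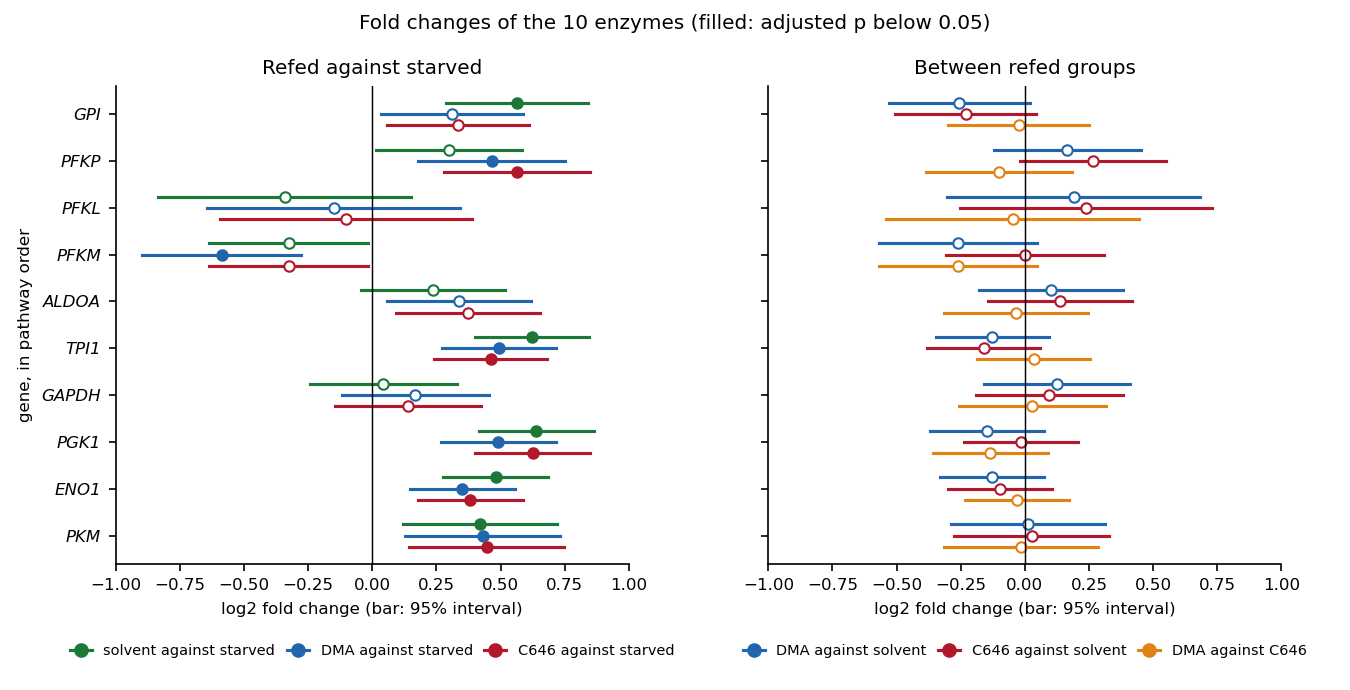
Log2 fold changes of the 10 genes in pathway order with 95% intervals, for refed against starved groups (left) and between refed groups (right). Filled points are called at an adjusted p under 0.05. Calls occur on the left only, with TPI1, PGK1, ENO1 and PKM filled in all 3 comparisons and PFKM the only one below 0.

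TPI1, PGK1, ENO1 and PKM were also higher in both inhibitor groups than in starved cells. PFKP joined them, and PFKM was lower with DMA. These comparisons share the starved libraries with the one above, so they are not independent of it. With DMA 5 members were called higher and 1 lower (26.9% of all genes called, 13.9% higher and 13.0% lower). With C646 5 were called higher and none lower (24.6%, 12.9% and 11.7%). The libraries did not overlap upwards for 7 members in each (21.1% and 20.6% of all genes), and downwards for 1 with DMA (20.5%).

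TPI1 was higher by 0.50 ± 0.10 with DMA and 0.46 ± 0.10 with C646, where solvent gave 0.62. PGK1 was higher by 0.49 ± 0.10 and 0.63 ± 0.10 (adjusted p = 0.0038 and 0.00096 by edgeR). ENO1 was higher by 0.35 ± 0.09 and 0.38 ± 0.09. In each of these groups every library lay above the starved ones. PKM was higher by 0.43 ± 0.14 and 0.45 ± 0.14 (adjusted p = 0.036 and 0.033 by edgeR). With DMA its libraries had 2941, 2818 and 2345 CPM, number 3 again the lowest. The PKM call was lost without starved library 1 or 3, DMA library 1 or 2, or C646 library 1 or 2, with adjusted p-values of 0.089 to 0.13. PGAM1 rose as well, by 0.50 and 0.49.

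PFKP passed the threshold in both inhibitor groups, at 0.47 ± 0.13 with DMA (adjusted p = 0.020 by edgeR) and 0.56 ± 0.13 with C646 (adjusted p = 0.0081). With DMA its libraries had 253, 178 and 205 CPM, and the first lay far above the others. The DMA call for PFKP was lost without DMA library 1 (0.31, adjusted p = 0.10) or without starved library 1 or 3 (adjusted p = 0.072 and 0.064). That for ENO1 was lost without DMA library 1 or starved library 1 (adjusted p = 0.060 and 0.052). That PFKP was called here and not with solvent does not show a difference, since the inhibitor groups did not differ from solvent by test.

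PFKM fell with DMA to 0.67 of its starved level (-0.59 ± 0.14, adjusted p = 0.0091 by edgeR), and this call held without any one library. With spike-in scaling its sign turned (0.23, adjusted p = 0.58), while the median of all genes stood at 0.81. With C646 PFKM had 97.6, 113 and 112 CPM and was not called (-0.33 ± 0.14, adjusted p = 0.12). The library numbers paired the libraries in these comparisons, and with the number as a block PFKM was also called lower with C646 (-0.32, adjusted p = 0.024).

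The block added GPI and ALDOA in both inhibitor groups, which brought the members called to 8 with DMA and 8 with C646, where 38.7% and 36.2% of all genes were called. GPI was at 0.32 with DMA and 0.34 with C646 under the block (adjusted p = 0.022 and 0.017 by edgeR), against 0.31 and 0.33 without it (adjusted p = 0.090 and 0.073). ALDOA, with 866, 836 and 937 CPM in DMA and 882, 967 and 854 CPM in C646 libraries, was at 0.35 and 0.38 under the block (adjusted p = 0.024 and 0.017 by edgeR). Without the block it was at 0.34 and 0.37 (adjusted p = 0.069 and 0.051). GAPDH was not called in either (0.17 ± 0.13 and 0.14 ± 0.13), but with spike-in scaling it was with DMA (0.96 ± 0.38, adjusted p = 0.032). PFKL, at 68.7, 64.9 and 56.5 CPM with DMA and 70.0, 83.5 and 42.9 CPM with C646, overlapped the starved libraries in both.

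Phosphofructokinase works as a tetramer that can mix the products of its 3 genes, so their proportions were also read per transcript length. PFKP took 51.5% ± 2.32 of their summed TPM in starved cells and 64.0% ± 2.20 with solvent, 64.6% ± 3.50 with DMA and 63.4% ± 3.42 with C646 (SD, n = 3). Its share was 49.6% to 54.1% in the starved libraries and 59.5% to 68.5% in the 9 refed ones, without overlap. PFKM went the other way, from 32.0% ± 4.11 to 23.3% ± 0.626, 21.5% ± 3.81 and 23.1% ± 2.15. Its starved libraries, 28.5% to 36.5%, all lay above the refed ones, 17.1% to 25.3%. PFKL held 16.5% ± 2.28 in starved cells and 12.7% to 13.9% in the refed groups, with overlapping libraries. These shares do not depend on the scaling between libraries, and they were not tested. They sum all transcripts of a gene, also those that do not code for protein. Protein-coding transcripts held 71.9% to 86.8% of the PFKM counts and 81.6% to 93.2% of the PFKL counts. For PFKP they held 99.8% to 100%.

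PKM makes 2 enzyme forms from 1 gene by including either of a pair of mutually exclusive exons. The PKM2 form is typical of proliferating cells and the PKM1 form of muscle and brain. The exons are shown because reads can be told apart only where they differ. They lie at chr15:72203022-72203188 (PKM1) and chr15:72202454-72202620 (PKM2) on the minus strand of GRCh38, and capitals mark the 62 of 167 positions at which they differ.
PKM1 exon: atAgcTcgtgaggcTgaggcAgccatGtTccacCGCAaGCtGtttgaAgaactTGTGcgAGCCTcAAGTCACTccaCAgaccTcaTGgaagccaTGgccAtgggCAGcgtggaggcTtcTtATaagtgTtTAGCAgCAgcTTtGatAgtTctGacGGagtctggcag
PKM2 exon: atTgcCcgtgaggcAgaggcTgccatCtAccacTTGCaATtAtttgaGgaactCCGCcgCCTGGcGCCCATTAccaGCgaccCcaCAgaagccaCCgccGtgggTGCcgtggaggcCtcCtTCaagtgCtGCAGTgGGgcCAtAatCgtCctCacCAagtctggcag

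The exons are 62.9% identical, and the differing positions spread over their whole length. The PKM1 exon was found whole in 6 annotated transcripts and the PKM2 exon in 4. Transcripts with either exon held 94.0% to 98.4% of the PKM counts of a library, and the PKM1 share is given of these. It was 2.95%, 2.77% and 5.07% in starved libraries 1 to 3, 2.59%, 2.95% and 4.84% with solvent, 2.34%, 3.17% and 4.75% with DMA, and 2.15%, 2.58% and 4.18% with C646. Per transcript length, in TPM, the PKM1 share was higher in every library, from 3.15% in C646 library 1 to 7.45% in starved library 3. Transcripts with either exon held 83.5% (solvent library 1) to 97.9% (solvent library 3) of the PKM TPM. So PKM2 transcripts made up the bulk in every library. The share differed more between library numbers than between treatments: libraries numbered 3 had 4.18% to 5.07% in all 4 groups, those numbered 1 and 2 had 2.15% to 3.17%. These are the libraries that stood apart on the component with 14.6% of the variance, and their part in the share was not tested.

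Group means of the PKM1 share were 3.59% ± 1.28 in starved, 3.46% ± 1.21 in solvent, 3.42% ± 1.22 in DMA and 2.97% ± 1.07 in C646 libraries (SD, n = 3). The differences were -0.13 percentage points for solvent against starved, -0.04 for DMA against solvent and -0.49 for C646 against solvent. An exact two-sided permutation test gave p = 0.70, 0.90 and 0.50, and 0.90 for each after Benjamini-Hochberg adjustment over the 3 tests. With 3 libraries against 3 the test cannot go below 0.10. Within library numbers, C646 was below solvent in 3 of 3 pairs, by 0.37 to 0.67 percentage points. DMA was below solvent in 2 of 3 pairs. The exact paired test gave p = 0.25 for C646, the smallest that 3 pairs allow, and 0.75 for DMA (both 0.75 after adjustment over the 3 comparisons).

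**Figure D4:**
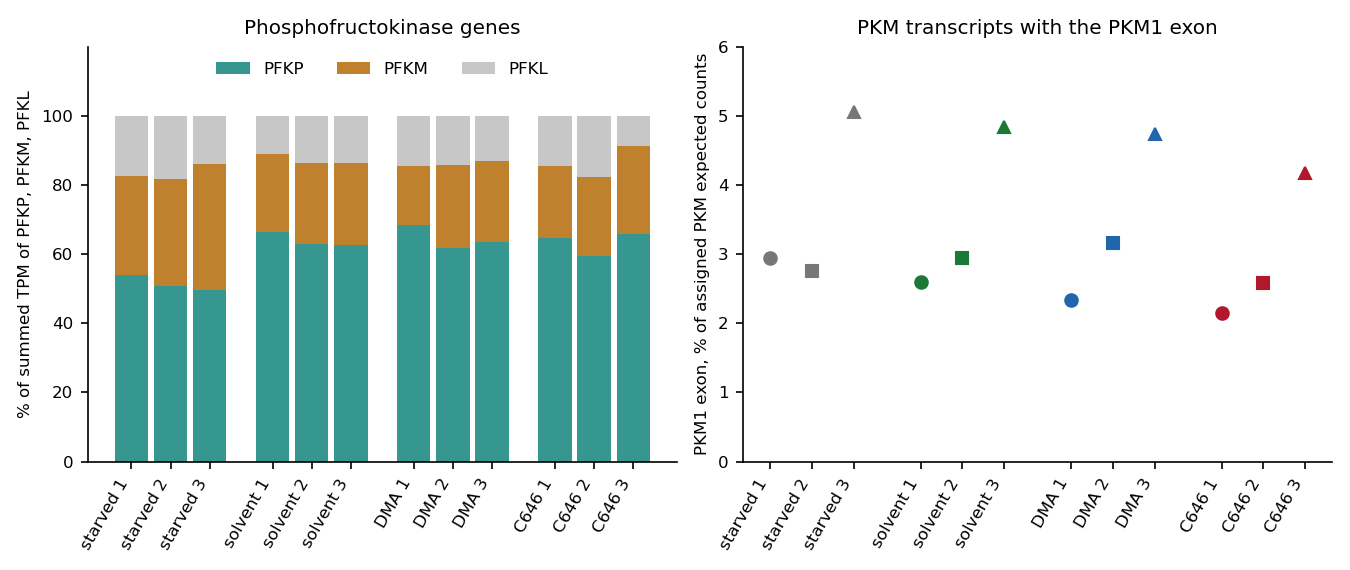
Left, share of PFKP, PFKM and PFKL in their summed TPM in each library; right, percent of assigned PKM expected counts in transcripts with the PKM1 exon, by library, with marker shapes for library numbers. PFKP takes 49.6% to 54.1% in starved and 59.5% to 68.5% in refed libraries, and the PKM1 share is highest in library 3 of every group.

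The 10 mRNAs together took 0.872% to 1.04% of the counts of a starved library. They took 1.09% to 1.24% with solvent, 1.20% with DMA and 1.16% to 1.25% with C646. Starved library 1 was the lowest for 6 members: GPI, ALDOA, TPI1, GAPDH, PGK1 and ENO1. Over the 12 libraries TPI1, PGK1 and ENO1 ran most closely together, with correlations of log2 CPM of 0.94 to 0.97, given as a description since the points share their groups. PFKM ran against PFKP (-0.70), and PFKL had correlations of -0.39 to 0.24 with the other members. GAPDH followed ALDOA (0.69) more closely than its neighbours in the lower pathway, TPI1 (0.20) and PGK1 (0.29). The genes most like the mean standardised level of the members were MTCH1 (0.94), MAGED1, PSMD3, ACTB and PFKFB3 (0.92 each), over 12 libraries. That mean does not stand for all 10 members: its correlation was -0.44 with PFKM, 0.04 with PFKL and 0.54 with GAPDH. PFKFB3 makes fructose 2,6-bisphosphate, the activator of phosphofructokinase, and measured 28.5 ± 4.27 CPM in starved and 41.0 ± 1.04 CPM in solvent cells.

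The genes around these steps were described with lists of 7 to 11 tested genes. Each count is to be read beside the 12.6% of all genes called higher and 11.7% called lower with solvent, and none of the lists was tested against that background. Among 11 tested transporters, hexokinases and lactate genes, 2 rose and 3 fell with solvent (median log2 fold change -0.12). LDHA, which turns pyruvate into lactate, rose from 326 ± 30.0 to 839 ± 182 CPM (1.36 ± 0.18, adjusted p = 0.00020 by edgeR), more than any member. The glucose transporter SLC2A1 fell from 519 ± 137 to 219 ± 36.3 CPM (-1.24 ± 0.25, adjusted p = 0.0039 by edgeR), and with spike-in scaling it was no longer called (-0.65). HK1, a hexokinase, rose by 0.44 ± 0.11, a call lost without starved library 2 (adjusted p = 0.063). Of 7 regulators of bisphosphates and of reversal, 4 rose and 1 fell (median 0.53). They included TIGAR (1.20 ± 0.21), which degrades fructose 2,6-bisphosphate, and BPGM (0.86 ± 0.20), which makes 2,3-bisphosphoglycerate. PCK2, a gluconeogenic enzyme of mitochondria, fell (-1.26 ± 0.17), and was not called with spike-in scaling (-0.65).

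In the pentose phosphate pathway 1 of 8 genes rose with solvent, RPIA (0.83 ± 0.16), and 2 fell, TKT and PGLS, whose signs turned with spike-in scaling (0.13 and 0.16). The calls for TKT and PGLS were each lost without any one of several libraries (starved 1, starved 2 and solvent 1 for both, also solvent 3 for TKT and solvent 2 for PGLS), with adjusted p-values of 0.071 to 0.19. Of 10 transcription factors known to act on glycolytic genes none rose and 3 fell (median -0.26). EPAS1, which encodes HIF-2α, was at -0.90 ± 0.16 and SP1 at -0.77 ± 0.11, but neither was called with spike-in scaling (-0.26 and -0.19). HIF1A (0.02 ± 0.15) and MYC (-0.66 ± 0.26) were not called (adjusted p = 0.93 and 0.083 by edgeR). Of 7 splicing factors linked to the PKM exons 3 rose and none fell, with a median of -0.12: SRSF3 (0.72 ± 0.15), RBM4 (0.66 ± 0.09) and HNRNPA2B1 (0.43 ± 0.11). The count of RBM4 is uncertain because of a readthrough gene, and the call of HNRNPA2B1 did not survive leaving out solvent library 1 (adjusted p = 0.065) or starved library 2 (adjusted p = 0.051). PTBP1, which represses the PKM1 exon, was at -0.12 ± 0.16 and was not called.

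Against solvent the inhibitors moved few of these genes. The hexokinase-related HKDC1 was higher with C646, at 31.3 ± 5.59 CPM against 7.36 ± 0.728 CPM (2.09 ± 0.28, adjusted p = 0.0069 by edgeR). With DMA it was lower, at 2.82 ± 1.10 CPM (-1.38 ± 0.29, adjusted p = 0.035 by edgeR), a call lost without any one of the solvent libraries or DMA library 1 or 2 (adjusted p-values of 0.068 to 0.15). DMA against C646 gave -3.47 ± 0.30 for it (adjusted p = 0.00015 by edgeR). BPGM was lower with DMA (-0.90 ± 0.20, adjusted p = 0.044 by edgeR) and PGD higher with C646 (0.62 ± 0.12, adjusted p = 0.026 by edgeR). The BPGM call was lost without any one library of the comparison, and the PGD call without solvent library 1 or 2 or C646 library 1 or 3. HKDC1 with C646 kept its call with spike-in scaling (2.18), and these other calls against solvent did not.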

How the data were processed

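Poly-A RNA was sequenced from 12 libraries (TruSeq Stranded mRNA kit). Trimmomatic 0.36, STAR 2.7.0e and GRCh38.p10 were used by the authors, per the submitters' processing notes, and the quantifier is not given in the sources used here, nor is its handling of strand. The deposited tables hold expected counts (estimated reads), TPM and effective lengths (another kind of value, not used as a measurement) for 182164 transcripts, per the file headers. Of these, 92 are spike-ins and 264, with 0.0923% to 0.146% of the counts, had no match in GENCODE 29 and were dropped. Expected counts were summed per gene and rounded, filtered (filterByExpr, minimum count 10, minimum total 15), scaled by TMM and tested with edgeR 4.0.16 quasi-likelihood F-tests in 1 fit of all libraries. SE and intervals come from that fit. The test was checked on simulated counts of independent libraries, so that check does not cover the pairing by library number. TPM served for levels between genes.

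Library numbers pair the libraries where every same-number correlation of deviations from the group means is over 0.1. This held for 5 comparisons (lowest 0.128) and not for solvent against starved (lowest 0.0957). The labels give no source for the numbers. Counts are named uncertain for genes that share more than 20% of their 31-base sequences or exon bases with another gene of the tables. The named genes are all members, up to 2 genes per list and direction, PGAM1, the PKM splicing factors and the 5 genes most like the members. HIF1A and MYC are named as well, outside that rule. Members and lists were chosen with earlier results of these data known. Alternatives were DESeq2 1.42.0, its size factors, spike-in scaling, other filters, only the compared groups, the number as a block and leaving out each library. Protein-coding transcripts alone and ALDOA with its readthrough gene were added after seeing the data.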

Additional observations from a re-analysis of the deposited data

How the results depend on the processing

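Counts for all genes moved most. DMA against solvent called 267 genes, and 1096 with DESeq2, 91 with spike-in scaling, 455 without a filter, 31 with only the compared groups, 1560 with the replicate block, 471 with the block without solvent library 1 and 1 to 286 without single libraries. C646 against solvent called 185, and in the same order 891, 100, 348, 71, 1199, 321 and 24 to 135. DMA against C646 called 441, and 1055 with DESeq2, 120 with spike-in scaling, 140 with only the compared groups, 1498 with the block, 1627 with the block without solvent library 1 and 180 to 316 without single libraries. In all these settings 0 members were called. DMA against starved called 4109 genes, 6574 with spike-in scaling and 6204 with the block without solvent library 1. C646 against starved called 3750, and 5796 in that block fit. Leaving out single libraries gave 2269 to 3450 genes for solvent against starved (3704 with all), 3009 to 3480 for DMA and 2514 to 3221 for C646.

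Members called against starved were 4 to 5 for solvent, 3 to 8 for DMA (3 without starved or DMA library 1) and 4 to 7 for C646 without single libraries. The block gave 8 for DMA and 8 for C646, and 8 for each also without solvent library 1. For solvent against starved, where the numbers do not pair the libraries by the rule, the block called 5451 genes and added PFKM (-0.31, adjusted p = 0.027), and every library was closest to its own number. The block without solvent library 1 called 7 members among 4570 genes there, adding ALDOA (0.34, adjusted p = 0.042) and PFKM (-0.41, adjusted p = 0.0097). Spike-in scaling reversed PFKM for DMA (0.23), TKT (0.13) and PGLS (0.16). DESeq2 and both other filters added ALDOA for C646, and DESeq2 added it for DMA. Protein-coding transcripts alone also added ALDOA for C646 (0.38, adjusted p = 0.046 by edgeR), and counting its readthrough gene with it did not. Neither of these 2 settings changed which members were called for solvent or DMA against starved. Only the compared groups lost PKM for solvent (adjusted p = 0.063) and ENO1 for DMA (adjusted p = 0.059). Among 906 member values under alternatives, 796 kept direction and side of the threshold, 30 gained and 20 lost a call, 1 reversed and 59 changed sign uncalled. PKM1 differences without single libraries ran from -0.82 to 0.61, from -0.71 to 0.65 and from -1.10 to 0.20 percentage points, with sign changes when a library numbered 3 or, in the first 2 comparisons, one numbered 1 or 2 was left out. The planned addition of pseudogene counts was not run because no gene of the tables is a pseudogene named after a member. The causes were not tested. The lowest level of a member in any library was 42.9 CPM, and whether depth or the spread between libraries limited the calls was not tested.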
